A study of Mus musculus with 8 samples.

Results

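The 9 genes described here encode sensors of nucleic acid in the cytosol, the adaptors they signal through and the kinases those adaptors activate. They are Ifih1, Ddx58 (also called Rigi), Mavs, Cgas, Tmem173 (also called Sting1), Aim2, Zbp1, Tbk1 and Ikbke, taken by name from the 41388 genes counted. RNA was sequenced from macrophages of epididymal white adipose tissue of 4 male mice fed normal chow. The mice were of the MitoFat strain, whose reporter marks the mitochondria of adipocytes. From each mouse, live CD45+ F4/80+ CD64+ cells were sorted into a population without reporter signal (mtD2-) and a population with it (mtD2+), which gives 4 pairs of libraries. The mtD2+ cells are those that had received mitochondria from adipocytes. All mice carry the reporter and had the same diet, so both groups share the genotype, and no mouse without the reporter was included. The sources used here do not give the age of the mice, the promoter that drives the reporter or how many cells went into a library.

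Mitochondria hold their own DNA and make RNA that can pair into double strands, and either can set off antiviral signalling when it reaches the cytosol. RNA is sensed by the helicases MDA5 (gene Ifih1), which binds long double-stranded RNA, and RIG-I (Ddx58), which binds RNA ends with a triphosphate; both act through MAVS, an adaptor on the mitochondrial outer membrane. DNA is sensed by cGAS, which makes a cyclic dinucleotide that activates STING (Tmem173), and by AIM2, which builds an inflammasome, while ZBP1 binds nucleic acid in the Z form. MAVS and STING both activate the kinases TBK1 and IKKε (Ikbke), which phosphorylate interferon regulatory factors and so turn on the interferon beta gene.

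The libraries held 18462287 to 27464399 counts, and all 9 genes passed the filter on low counts, with between 369 and 10484 counts in a library. Levels are CPM, counts scaled to library size with TMM factors, and changes are log2 fold changes of mtD2+ over mtD2- from edgeR's quasi-likelihood test with the mouse as a block, called at an adjusted p under 0.05. Macrophage markers were abundant throughout: the summed level of 10 of them was 13651 to 14965 CPM in mtD2- and 12468 to 14283 CPM in mtD2+. Of these 10, edgeR called 1 higher and 1 lower, and DESeq2 and limma voom each called 1 higher and 3 lower. Of the genes for the sorted surface proteins, Ptprc (CD45) was level (log2 0.02, SE 0.11), Adgre1 (F4/80) was lower in mtD2+ (log2 −0.55, SE 0.12, adjusted p = 0.0336) and Fcgr1 (CD64) stood at −0.44 (SE 0.11, adjusted p = 0.0554). Adgre1 was not called without mouse 1, 3 or 4 (adjusted p = 0.165, 0.160 and 0.0764) or without the block (0.0737). Fcgr1 was called lower by DESeq2 (adjusted p = 0.00963) and limma voom (0.0354), with library totals (0.0437) and with a minimum count of 30 (0.0452). Lymphocyte, granulocyte, mast cell and endothelial markers summed to 5.16 to 29.9 CPM, and 11 of those 14 genes were at 0 in at least 1 library. In bulk RNA of this kind, fewer cells that express a gene and less RNA per cell cannot be told apart.

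Macrophages that held adipocyte mitochondria had 2.45 times as much RNA of Ifih1, the MDA5 sensor, and 1.55 times as much of Tbk1, the kinase. None of the other 7 genes passed the test: Ddx58, Cgas, Aim2, Zbp1 and Ikbke did not keep 1 direction across mice, and the adaptors Mavs and Tmem173 had lower values in mtD2+ in every mouse. Thus 2 of the 9 genes were higher and 0 lower, where 5.50% of all 13933 tested genes were called, 3.72% higher and 1.78% lower. The 9 genes were chosen with earlier results of these data known, so these shares cannot test enrichment. Scaled by library totals in place of TMM, the split over all genes was 407 higher and 349 lower against 519 and 248, and 1 of the 9 was higher (background 2.92%). At an unadjusted p under 0.05 edgeR passed 4 of the 9 (Ifih1, Tbk1, Mavs and Tmem173), where 22.8% of all tested genes passed. The DESeq2 Wald test and limma voom each called 2 of the 9 higher, Ifih1 and Tbk1, and 0 lower. Over all genes DESeq2 called 1135 of 13662 higher and 4.98% lower. Limma voom called 694 of 13933 higher and 2.67% lower. Without the mouse block 0 of the 9 were higher (background 1.06%), and 2 were higher at an unadjusted p under 0.05 (background 8.84%). With mouse 1, 2, 3 or 4 left out 1 of the 9 was higher, against backgrounds of 1.21%, 1.38%, 0.850% and 3.08%. The direction was the same in all 4 mice for 4 of the 9, higher for 2 (16.3% of tested genes) and lower for 2 (16.0%). The median log2 fold change of the 9 genes was 0.18, against −0.00064 for all tested genes.

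**Figure D1:**
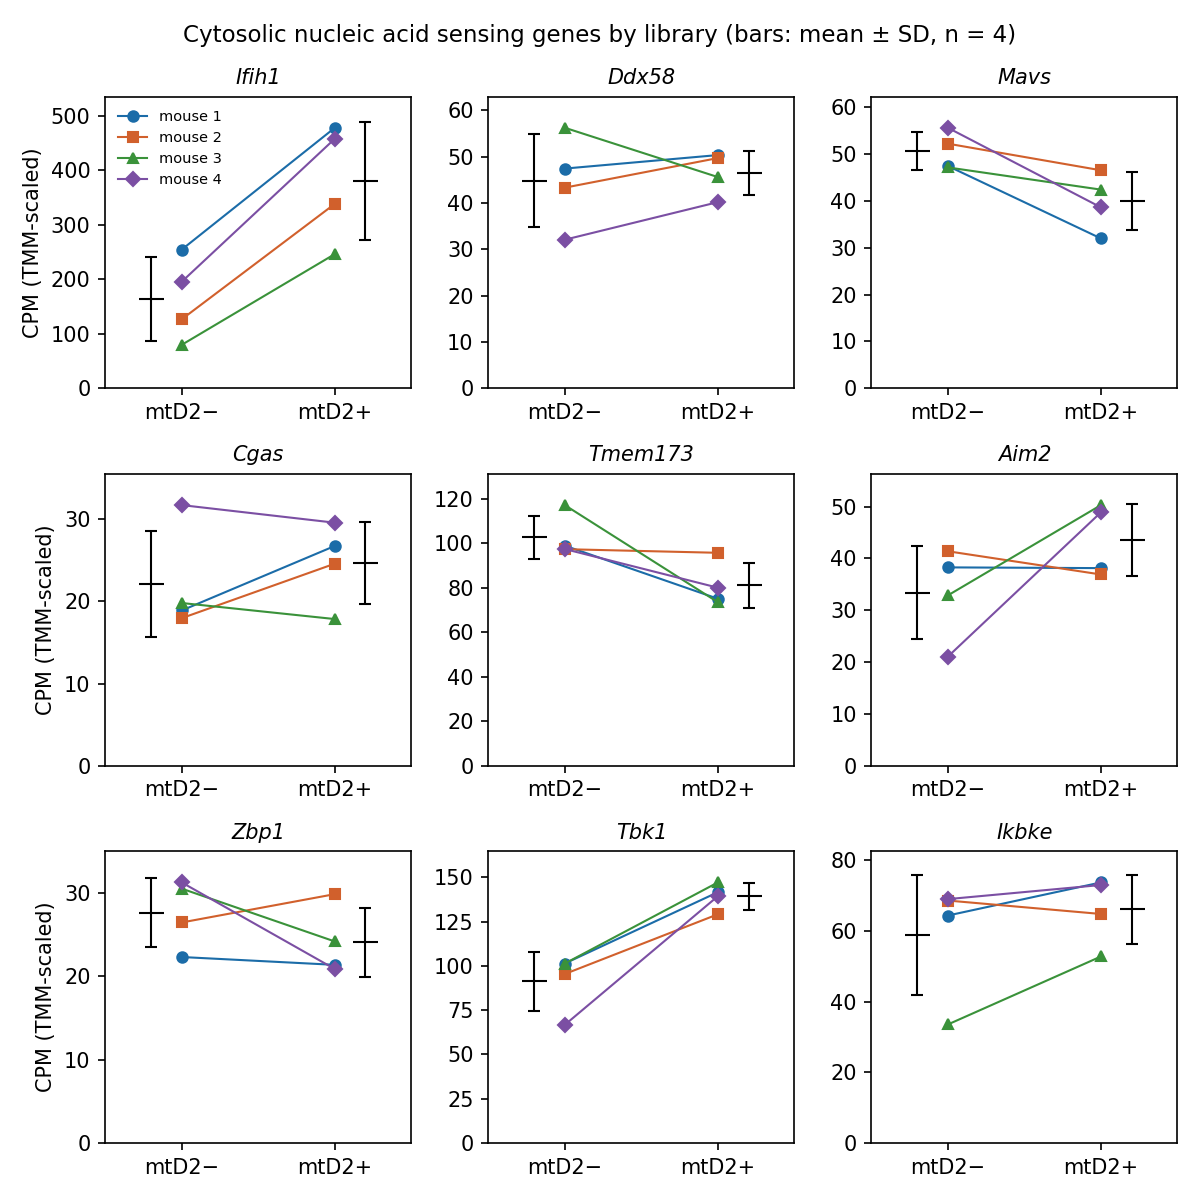
Level of each of the 9 genes in each library (CPM with TMM scaling, axes from 0), with a line for each mouse and black bars for the mean ± SD of 4 libraries. Ifih1 and Tbk1 rise in all 4 mice, Mavs and Tmem173 are lower in mtD2+ in all 4 without passing the test, and the other 5 genes go both ways.

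Ifih1 (ENSMUSG00000026896, GRCm38 chromosome 2, 62595798 to 62646255) stood at 254, 127, 79.7 and 195 CPM in the mtD2- libraries of mice 1 to 4 and at 478, 338, 246 and 458 CPM in their mtD2+ libraries. The mice stood in the same order in both populations, mouse 1 highest and mouse 3 lowest, and the groups overlapped because the mtD2+ library of mouse 3 was just under the mtD2- library of mouse 1. Within mice the difference was steady, with log2 ratios of 0.91, 1.42, 1.63 and 1.23. The fitted log2 fold change was 1.30 (SE 0.13, 95% interval 0.99 to 1.60, adjusted p = 0.00249). The call held whichever mouse was left out (1.19 to 1.43, adjusted p 0.00524 to 0.0221). It was lost without the mouse as a block, where the spread between mice enters the error (1.21, adjusted p = 0.0815). Across the 13 alternative settings the adjusted p ran from 2.92e-20 to 0.0815.

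Ddx58 (ENSMUSG00000040296, chromosome 4, 40203773 to 40239828), the other RNA helicase, stood at 47.4, 43.3, 56.2 and 32.1 CPM in mtD2- and at 50.3, 49.7, 45.6 and 40.2 CPM in mtD2+. It was higher in 3 mice and lower in mouse 3, and the groups overlapped. Its log2 fold change was 0.08 (SE 0.14, 95% interval −0.25 to 0.40, adjusted p = 0.799), and without mouse 4 it was −0.0059. The log2 ratio of Ifih1 less that of Ddx58 was 0.82, 1.22, 1.93 and 0.90 in mice 1 to 4 (mean 1.22, SD 0.50), so that in every mouse the MDA5 gene had the higher ratio of the pair. No test was run on this difference.

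Both helicase genes hold the same kind of short motif near their transcript start, which is why their sequences are shown. The motif searched was the interferon-stimulated response element written as GAAA, any 2 bases and GAAA, on both strands, in windows of 300 bases that run from 250 bases before the start to 50 after it (RefSeq, GRCm38.p6). It is present in 3.44% of the 32851 windows in the table. Of the 7 sensing genes whose window was searched, 2 held it, Ifih1 and Ddx58, while Mavs, Cgas, Aim2, Tbk1 and Ikbke did not. No window was used for the genes of STING and ZBP1, so whether they hold the motif was not tested. In Ifih1 it lies at bases 33 to 42 of the transcript and in Ddx58 at bases 3 to 12, on the opposite strand. The stretches of 30 bases around the match, at chr2:62646206-62646235 and chr4:40239804-40239833, are given 5′ to 3′ on the transcript strand (the minus strand of the genome), with the match in capitals.
Ifih1: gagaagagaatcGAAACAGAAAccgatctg
Ddx58: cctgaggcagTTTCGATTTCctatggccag
A match describes letters and is not evidence of binding. Of these 2 genes Ifih1 was higher in mtD2+ and Ddx58 was not called.

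Mavs (ENSMUSG00000037523, chromosome 2, 131234063 to 131248025), the adaptor for both helicases, stood at 47.5, 52.3, 47.2 and 55.7 CPM in mtD2- and at 32.0, 46.6, 42.4 and 38.6 CPM in mtD2+. Every mtD2+ library was below every mtD2- library, as for 6.01% of tested genes. The log2 fold change was −0.35 (SE 0.14, 95% interval −0.66 to −0.04, unadjusted p = 0.0293, adjusted p = 0.167). No setting called it, and leaving out a mouse gave −0.41 to −0.28.

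Cgas (ENSMUSG00000032344, chromosome 9, 78430526 to 78443237), the DNA sensor upstream of STING, had the lowest level per length of the 9 genes. It stood at 18.9, 18.0, 19.8 and 31.7 CPM in mtD2- and at 26.8, 24.6, 17.9 and 29.6 CPM in mtD2+. It was higher in mtD2+ in mice 1 and 2 and lower in mice 3 and 4. The log2 fold change was 0.18 (SE 0.18, 95% interval −0.24 to 0.59, adjusted p = 0.609). Its exons share 201 bases with Gm8093 on the opposite strand, a gene with 268 counts over the 8 libraries against 4303 for Cgas.

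Tmem173 (ENSMUSG00000024349, chromosome 18, 35733678 to 35740554) encodes STING, the adaptor that answers to cGAS. It stood at 99.0, 97.4, 117 and 97.5 CPM in mtD2- and at 75.1, 95.8, 73.5 and 80.1 CPM in mtD2+. The groups did not overlap, although in mouse 2 the pair was nearly level (log2 ratio −0.02, against −0.67 in mouse 3). The log2 fold change was −0.34 (SE 0.13, 95% interval −0.64 to −0.05, unadjusted p = 0.0256, adjusted p = 0.154), and −0.45 to −0.23 with a mouse left out.

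Aim2 (ENSMUSG00000037860, chromosome 1, 173350879 to 173466040), the inflammasome sensor of DNA, stood at 38.3, 41.4, 32.8 and 21.0 CPM in mtD2- and at 38.1, 36.9, 50.3 and 48.9 CPM in mtD2+. The log2 ratios of mice 3 and 4 were 0.61 and 1.22, while those of mice 1 and 2 were −0.0054 and −0.17. The log2 fold change of 0.41 (SE 0.22, 95% interval −0.10 to 0.92, adjusted p = 0.319) was 0.15 without mouse 4.

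Zbp1 (ENSMUSG00000027514, chromosome 2, 173206612 to 173218923), which can start necroptosis through RIPK3, stood at 22.3, 26.5, 30.5 and 31.3 CPM in mtD2- and at 21.4, 29.9, 24.2 and 20.9 CPM in mtD2+. It was lower in 3 mice and higher in mouse 2. The log2 fold change was −0.20 (SE 0.17, 95% interval −0.59 to 0.19, adjusted p = 0.534), and −0.07 without mouse 4.

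Tbk1 (ENSMUSG00000020115, chromosome 10, 121546455 to 121586794), the kinase on which the RNA and the DNA arm converge, stood at 101, 95.4, 101 and 66.6 CPM in mtD2- and at 142, 129, 147 and 139 CPM in mtD2+. Every mtD2+ library was above every mtD2- library, as for 6.55% of tested genes. The log2 ratios were 0.48, 0.44, 0.54 and 1.06, the last from mouse 4, whose mtD2- library was the lowest. The fitted log2 fold change was 0.63 (SE 0.13, 95% interval 0.33 to 0.93, adjusted p = 0.0286). The call was close to the threshold: leaving out any 1 mouse ended it (0.49 to 0.69, adjusted p 0.0530 to 0.107), as did dropping the mouse block (0.61, adjusted p = 0.0647) and scaling by library totals (0.57, adjusted p = 0.0583). It was kept in 7 of the 13 alternative settings, among them DESeq2 (adjusted p = 0.00025) and limma voom (0.0140).

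Ikbke (ENSMUSG00000042349, chromosome 1, 131254343 to 131279606) encodes IKKε, the kinase related to TBK1. It stood at 64.3, 68.6, 33.5 and 69.0 CPM in mtD2- and at 73.7, 64.8, 52.8 and 73.0 CPM in mtD2+. Apart from mouse 3, which was low in both populations, the libraries lay close together. The log2 fold change was 0.21 (SE 0.14, 95% interval −0.11 to 0.53, adjusted p = 0.427). The log2 ratio of Tbk1 less that of Ikbke was 0.29, 0.52, −0.12 and 0.98 in mice 1 to 4, so the kinases did not part in the same way in every mouse. Ikbke shares 159 and 65 exon bases with a pair of genes on the opposite strand, which had 14 and 65 counts against 11627.

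**Figure D2:**
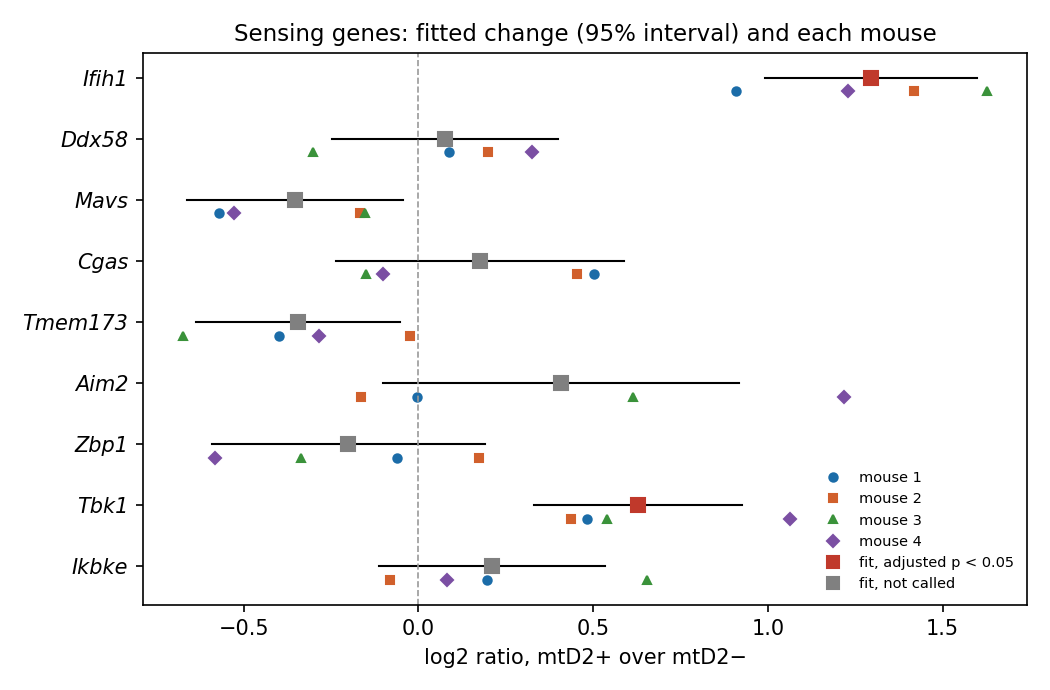
Log2 ratio of mtD2+ over mtD2- for the 9 genes: squares give the edgeR fit with its 95% interval, red where the adjusted p is under 0.05, and small markers give each mouse. The intervals of Ifih1 (0.99 to 1.60) and Tbk1 (0.33 to 0.93) lie above 0, those of Mavs and Tmem173 lie below 0 without a call, and the other 5 include 0.

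The mean log2 ratio of the 3 RNA-arm genes Ifih1, Ddx58 and Mavs was 0.14, 0.48, 0.39 and 0.34 in mice 1 to 4, and that of the 3 DNA-arm genes Cgas, Tmem173 and Aim2 was 0.03, 0.09, −0.07 and 0.28. The RNA arm was thus above the DNA arm by 0.11, 0.40, 0.46 and 0.06 (mean 0.26, SD 0.20). With Ifih1 left out, a choice made after its value was seen, the difference was −0.27, −0.07, −0.16 and −0.38 (mean −0.22, SD 0.13), the opposite sign in all 4 mice. The sign of the contrast between RNA and DNA sensors therefore rests on Ifih1. No test was run on these values.

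Per kilobase of gene model, Tmem173 was the most abundant of the 9 in mtD2- (44.6 ± 4.20 CPM per kb, SD, n = 4). This scale divides by the length of the gene model, from 2302 bases for Tmem173 to 9018 for Ikbke. It does not allow for which transcripts of a gene were made, so the order between genes is approximate. Tbk1 (30.1 ± 5.47), Ifih1 (20.1 ± 9.40) and Mavs (15.1 ± 1.22 CPM per kb) followed, with libraries of neighbours in this order overlapping from Tbk1 to Mavs. Below them Aim2, Zbp1, Ikbke, Ddx58 and Cgas stood at 9.53, 7.83, 6.53, 6.35 and 5.36 CPM per kb, each overlapping the next. In mtD2+ the order of the means at the top differed. Ifih1 stood at 46.6 ± 13.3 and Tbk1 at 45.9 ± 2.48 CPM per kb, which overlapped. Tmem173 came after them at 35.2 ± 4.41, its libraries apart from those of Tbk1 but overlapping those of Ifih1. Aim2 (12.4 ± 2.00) and Mavs (11.9 ± 1.85 CPM per kb) overlapped, and the last 4 genes, from Ikbke at 7.33 to Cgas at 5.99 CPM per kb, overlapped in turn.

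The genes around the sensors were taken from 8 lists, 165 genes in all, of which 145 were tested. Of these, 22 were higher and 1 was lower in mtD2+, beside the 3.72% and 1.78% of all tested genes. The lists were chosen with earlier results of these data known, so this comparison cannot test whether they are enriched. Without the mouse block 5 of the 22 were called, Trim25, Optn, Casp4, Ifit1 and Ifit2, and the lower gene was not. Over all genes DESeq2 called 1135 higher and 681 lower, and limma voom 694 higher and 372 lower.

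Among 22 partners of RNA sensing (21 tested, median log2 0.00), 2 were called, both higher. Ddx60, a helicase linked to RIG-I-like receptor signalling, stood at 266, 165, 291 and 167 CPM in mtD2- and at 402, 404, 492 and 332 CPM in mtD2+ (log2 0.91, SE 0.13, adjusted p = 0.00785). Trim25, a ubiquitin ligase known for activating RIG-I, stood at 108, 120, 135 and 113 CPM and then at 179, 184, 255 and 170 CPM (log2 0.71, SE 0.11, adjusted p = 0.00895). The groups did not overlap for either gene, and Ddx60 was called with any 1 mouse left out, while Trim25 lost it without mouse 1 or mouse 3 (0.65 to 0.75, adjusted p up to 0.0634). Dhx58, the third helicase of the family, named although it was not picked by rank, was level (log2 0.00, 95% interval −0.26 to 0.27).

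Of 22 partners of DNA sensing (21 tested, median −0.23), the 1 called gene was lower. It was Dnase1l3, a secreted nuclease that digests DNA from dying cells. It stood at 513, 477, 496 and 338 CPM in mtD2- and at 310, 416, 337 and 210 CPM in mtD2+, lower in all 4 mice with overlapping groups (log2 −0.54, SE 0.12, adjusted p = 0.0358). Its call was lost without mouse 1, 3 or 4 (−0.66 to −0.48, adjusted p up to 0.169) and without the block (adjusted p = 0.224). DESeq2 called 2 of the list lower and limma voom 1. Banf1, a protein that coats DNA and keeps cGAS from it, had the next smallest p (log2 −0.40, SE 0.11, adjusted p = 0.0760, and 0.0452 by DESeq2).

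The PYHIN family, to which Aim2 belongs, sits in a gene cluster on chromosome 1, and its members are so alike that reads may have been split between them, so single values are uncertain. Of 13 listed genes 11 were tested, and 2 were called, both higher (median 0.04). Ifi207 stood at 932, 722, 760 and 696 CPM in mtD2- and at 1173, 1030.3, 1149 and 1148 CPM in mtD2+ (log2 0.54, SE 0.11, adjusted p = 0.0241). Ifi203 stood at 147, 126, 129 and 86.2 CPM and then at 198, 164, 195 and 161 CPM (log2 0.58, SE 0.12, adjusted p = 0.0291). Both had groups that did not overlap. Ifi207 lost its call without mouse 1, 2 or 3 and Ifi203 without any 1 mouse.

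Of 24 genes of shared signalling, all tested (median 0.17), edgeR called 6, all higher. DESeq2 called 7 higher and 1 lower, and limma voom 6 higher and 0 lower. Optn, an adaptor that binds TBK1 and ubiquitin, was at 32.9, 21.0, 12.9 and 44.9 CPM in mtD2- and at 72.8, 66.3, 80.3 and 132 CPM in mtD2+ (log2 1.74, SE 0.22, adjusted p = 0.00481), a call kept under all 13 alternatives. Tank, a scaffold that holds TBK1 and IKKε in complexes, was at 281, 213, 182 and 272 CPM and then at 448, 324, 396 and 598 CPM (log2 0.88, SE 0.13, adjusted p = 0.00785). Neither gene's groups overlapped, and Tank lost its call without mouse 3 (adjusted p = 0.0597). Nfkb1, a subunit of NF-κB, and Tnfaip3, which encodes the brake A20, stood at log2 0.58 (SE 0.10, adjusted p = 0.0160) and 0.75 (SE 0.14, adjusted p = 0.0188), and both lost their calls without mouse 1, 2 or 3. Chuk and Irf1, outside the 4 of smallest p, were the other 2 called, at log2 0.60 and 0.78. Irf3, the factor that TBK1 phosphorylates, was lower in all 4 mice and not called by edgeR (log2 −0.50, SE 0.14, adjusted p = 0.0803), a gene named after its value was seen.

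Of 15 effectors of cell death and inflammasomes, all tested (median 0.17), edgeR called 4, all higher. DESeq2 called 5 higher and 1 lower, and limma voom 4 higher and 1 lower. Casp4, the caspase of the non-canonical inflammasome, was at 108, 80.1, 77.2 and 100.1 CPM in mtD2- and at 199, 143, 191 and 227 CPM in mtD2+ (log2 1.05, SE 0.12, adjusted p = 0.00323), with no overlap and with a call kept under all 13 alternatives. Ripk3, the necroptosis kinase that ZBP1 binds, stood at 101, 69.5, 64.9 and 138 CPM in mtD2- and at 148, 121, 105 and 267 CPM in mtD2+, higher in all 4 mice with overlapping groups (log2 0.75, SE 0.11, adjusted p = 0.00835). The inflammasome sensor Nlrp3 and the caspase-8 regulator Cflar stood at log2 1.16 (SE 0.20) and 0.63 (SE 0.13). Ripk3 lost its call without mouse 3, Nlrp3 without mouse 2 or 3 and Cflar without mouse 1, 2 or 3.

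**Figure D3:**
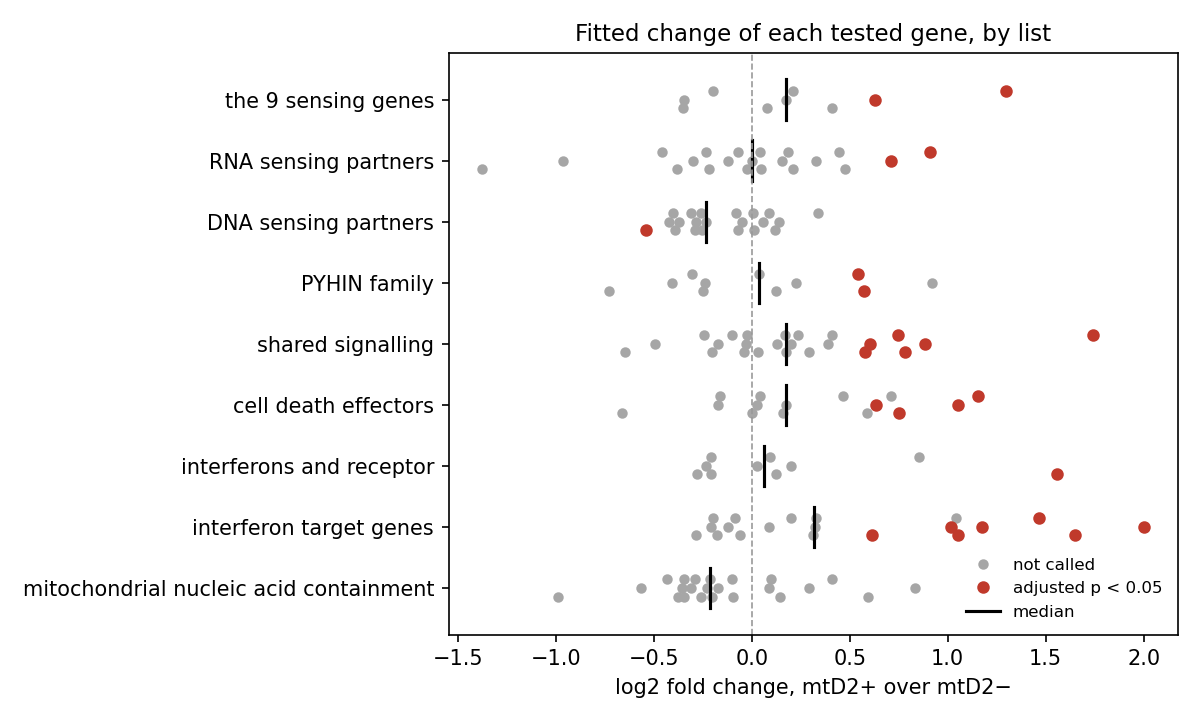
Fitted log2 fold change of each tested gene, mtD2+ over mtD2-, for the 9 sensing genes and the 8 lists around them; red points passed an adjusted p of 0.05 and black lines are medians. Called genes lie on the higher side in 6 of the 8 lists, with 7 of 20 interferon target genes, and the DNA sensing list has 1 called gene, lower.

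Interferon beta, the product at the end of both arms, was one of the genes with the larger changes. Ifnb1 (chromosome 4, 88522025 to 88522774) stood at 150, 62.6, 46.1 and 129 CPM in mtD2- and at 428, 253, 176 and 217 CPM in mtD2+. The groups did not overlap, and the log2 fold change was 1.56 (SE 0.20, adjusted p = 0.00495), or 2.94-fold. Its call held with any mouse left out (1.40 to 1.82, adjusted p 0.00209 to 0.0397) and not without the block (adjusted p = 0.0710). Of the 13 interferon alpha genes listed, 10 had no count in any library and the other 3 had 20 counts between them over all 8 libraries. Of 26 interferon, receptor and signalling genes 10 were tested, and Ifnb1 was the 1 called. The receptor chain gene Ifnar1 stood at log2 −0.21 (SE 0.11, adjusted p = 0.294). Stat2 and Irf9, which help carry the receptor's signal and are named after their values were seen, were not called, at log2 0.12 (adjusted p = 0.508) and −0.21 (adjusted p = 0.330).

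Of 20 interferon target genes, all tested, 7 were called, all higher (median 0.32), where 3.72% of all tested genes were called higher. Of the 20, 8 were higher in all 4 mice, where 16.3% of all tested genes were. Ifit1, which binds foreign RNA caps, stood at 226, 107, 63.2 and 132 CPM in mtD2- and at 770, 546, 319 and 390 CPM in mtD2+ (log2 2.00, SE 0.16). Ifit2 and Oasl1 stood at log2 1.65 (SE 0.14) and 1.47 (SE 0.13), with log2 ratios of at least 1.29 and 1.20 in every mouse. The chemokine gene Cxcl10 stood at 638, 363, 166 and 904 CPM in mtD2- and at 1215, 896, 575 and 1454 CPM in mtD2+ (log2 1.18, SE 0.17, adjusted p = 0.00817), higher in every mouse with overlapping groups. These 4 genes were called with any mouse left out. Ifih1 and Ddx58 are themselves known targets of interferon. The other 13 genes of the list were not called, among them Mx1 at log2 0.33, Mx2 at 0.20 and Bst2 at −0.12, named after their values were seen.

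**Figure D4:**
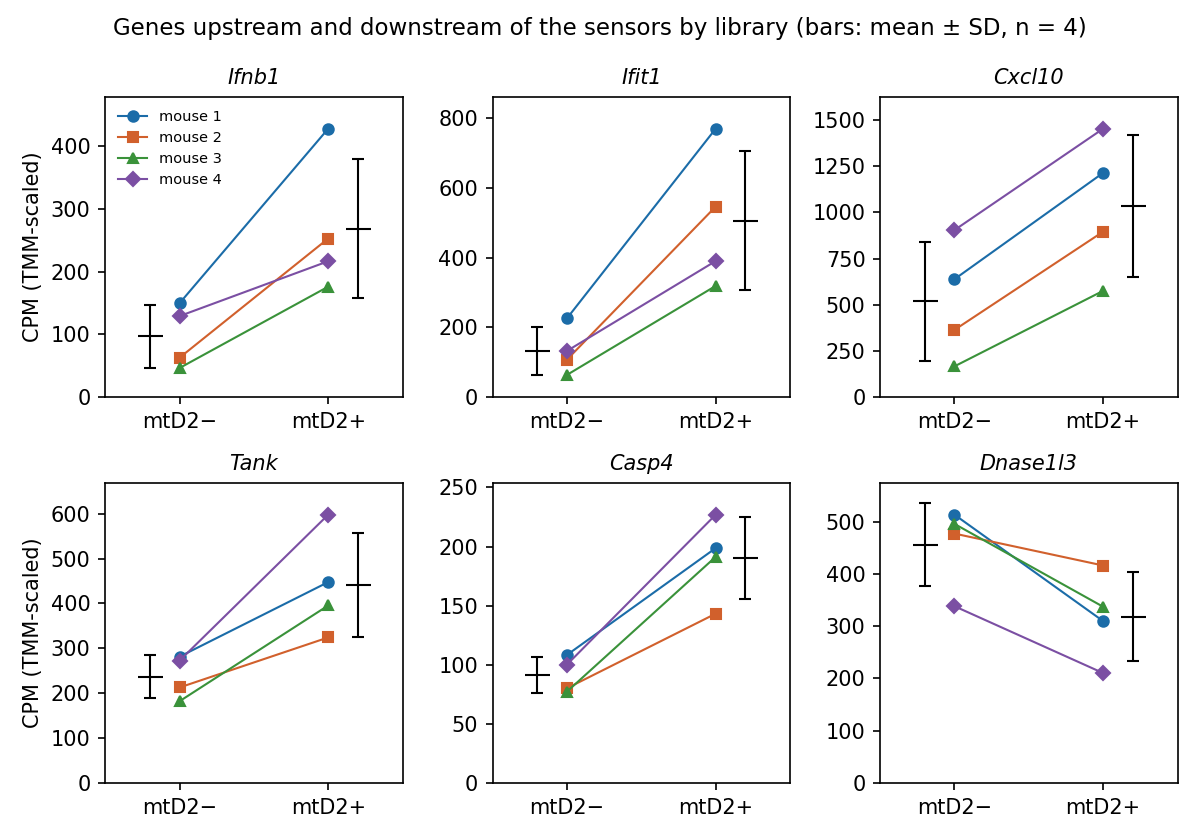
Level in each library (CPM with TMM scaling, axes from 0) of 6 genes around the sensors, with a line for each mouse and bars for the mean ± SD of 4 libraries. Ifnb1, Ifit1, Tank and Casp4 have no overlap between populations, Cxcl10 rises in every mouse from different starting levels, and Dnase1l3 is lower in mtD2+ in every mouse.

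Of 23 genes that keep mitochondrial DNA and RNA packaged, degraded or inside the organelle, all tested, edgeR and limma voom called 0 and DESeq2 called 1, with a median of −0.21. At an unadjusted p under 0.05 edgeR passed 2 higher and 2 lower, where 22.8% of all tested genes passed. Supv3l1, the helicase of the mitochondrial RNA degradosome, stood at log2 0.83 (SE 0.25, adjusted p = 0.0894, and 0.0252 by DESeq2), and Vdac1, a channel of the outer membrane, at −0.38 (SE 0.11, adjusted p = 0.0956).

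The genes whose profile over the 8 libraries lay closest to that of Ifih1 were Mir155hg, Cd28 and Spaca6. Likeness was the root mean square difference of centred log2 CPM, which was 0.24, 0.27 and 0.28 for these genes, where the profile of Ifih1 itself departs from its mean by 0.83. Their log2 fold changes were 1.20, 1.56 and 1.21, against 1.30 for Ifih1. Closest to Tbk1 were Fnbp4, Baz2b and Clk1, with differences of 0.072, 0.077 and 0.078 against a departure of 0.36 for Tbk1 itself. The search covered 9363 genes with a mean of at least 5 CPM, and libraries of a mouse share their source.

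Other RNA moved between the same libraries. Of 22 genes known to respond to tissue dissociation, edgeR called 7, all higher, DESeq2 12, limma voom 10 and edgeR without the block 2. Their sum was 11971 to 24820 CPM in mtD2- and 21187 to 24272 CPM in mtD2+. The log2 ratio of that sum was 0.54, 0.82, 0.64 and −0.03 in mice 1 to 4, beside ratios of 0.91, 1.42, 1.63 and 1.23 for Ifih1 and 0.48, 0.44, 0.54 and 1.06 for Tbk1. The mtD2- library of mouse 4 had the highest dissociation sum of the 8 libraries and the lowest Tbk1 level. Over all but the lowest-count genes it also lay furthest from the other mtD2- libraries. The chi-square per degree of freedom of its counts against theirs was 120 to 155, and 40.2 to 42.5 among mice 1 to 3. The Ifih1 level of this mtD2- library of mouse 4, 195 CPM, lay within the 79.7 to 254 CPM of the mtD2- libraries. Fibroblast and adipocyte precursor markers, of which edgeR called 6 of 12 and DESeq2 9, all lower, summed to 781 to 1365 CPM in mtD2- and 236 to 292 CPM in mtD2+, and none of the 12 was at 0 in any library. Monocyte markers, with 1 of 8 lower, summed to 571 to 722 CPM and 368 to 483 CPM, and the adipocyte markers, with no call by edgeR (2 of 8 at an unadjusted p under 0.05 and 2 by DESeq2), to 136 to 212 CPM and 155 to 301 CPM. Dendritic cell markers, with no call among the 7 tested by edgeR (1 at an unadjusted p under 0.05 and 1 by DESeq2), summed to 174 to 271 CPM and 254 to 292 CPM. The part of these cells and of the dissociation genes in the changes of the sensing genes was not tested.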

How the data were processed

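Counts of 8 libraries were analysed, 4 mtD2- and 4 mtD2+, paired by the replicate number in the sample titles, which was taken as the mouse. Per the submitters' processing notes, bcl2fastq, STAR 2.0.4b and featureCounts 1.45 of Subread were used with GRCm38; neither their options nor any use of strand in counting is given in the sources used here. The deposited counts are whole reads per gene. The deposited CPM and RPKM were the authors' scalings of those counts by library total and gene length, checked by recomputation and not tested. Symbols came from GENCODE M21, which named 40340 of 41388 genes; coordinates are the deposited ones. Pyhin1, on the PYHIN list, was not used here.

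The test was edgeR 4.0.16 under R 4.3.3 (quasi-likelihood F test on counts, TMM, mouse as a block, filter with a minimum count of 10), with p-values adjusted by Benjamini-Hochberg over 13933 genes. Each SE is the size of the log2 change over the root of its F value. Alternatives were limma 3.58.1 voom, DESeq2 1.42.0, other scalings and filters, protein-coding genes alone, no block, and each mouse left out. The test was checked on simulated data, where it recovered 16% of genes changed 1.5-fold and 58% of those changed 2-fold. Only 50 genes were given each size of change, beside 13236 left unchanged. An adjusted p depends on how many genes change, so these shares need not hold for the data. The pairing rests on reading the replicate numbers in the sample titles as mice. Deviations from the group means correlated within mice 1 to 4 at 0.0385, 0.0704, 0.145 and 0.251, beside highest values with another mouse of 0.0582, 0.0246, 0.0139 and −0.010, so that mouse 1 did not correlate best with itself and 2 of 4 pairs passed 0.1.

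The members and gene lists were chosen with earlier results of these data known. All 9 members are named, with up to 4 called genes of smallest p from each list, or the 2 of smallest p where fewer than 2 were called, the 3 genes most like each called member, and the sort markers Ptprc, Adgre1 and Fcgr1; others are said to be chosen after their values were seen.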

Additional observations from a re-analysis of the deposited data

Results flagged for a closer look

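In 3 groups of 4 libraries, 1 library lay far from the other 3, out of 80 groups looked at for 40 genes; chance alone gives about 1 in 20. Tmem173 stood at 117 CPM in the mtD2- library of mouse 3, against 97.4 to 99.0 CPM in the other 3, and without that mouse its log2 fold change was −0.23 in place of −0.34. Cgas stood at 31.7 CPM in the mtD2- library of mouse 4, against 18.0 to 19.8 CPM, and its log2 fold change was 0.27 without mouse 4 and 0.18 with it. Ikbke stood at 33.5 CPM in the mtD2- library of mouse 3, against 64.3 to 69.0 CPM, and its log2 fold change was 0.07 without mouse 3 and 0.21 with it. None of these genes was called with or without the mouse.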

How the results depend on the processing

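Over all genes 519 were higher and 248 lower; DESeq2 called 1135 and 681, and library totals in place of TMM gave a more even split of 407 and 349. Without the mouse block the counts were 147 and 71, with 0 sensing genes and 5 higher and 0 lower genes of the surrounding lists, against 2, 22 and 1. Library totals left 1 sensing gene (Ifih1). Lower genes of the lists numbered 4 with DESeq2, and 2 with library totals, limma voom, a minimum count of 30 or no filter. Leaving out each mouse gave 120 to 432 higher and 46 to 123 lower genes, 1 sensing gene each time, 8 to 22 higher and 0 to 1 lower list genes, and an RNA-less-DNA difference of 0.19 to 0.32; that difference does not depend on scaling by its construction. Fewer samples enter the fits with a mouse left out. Changes near 0 took the other sign: Ddx58 was −0.0059 without mouse 4 (to 0.21 without another mouse), and Ptprc was −0.063 to 0.063 with a mouse left out and −0.038 with library totals. What sets these differences between settings was not tested. In the main fit p-values set the change against variation within mice, over 4 mice. Each gene's estimate of that variation was drawn towards a trend over the tested genes. No gene under the filter was tested in that fit.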

Other observations

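Trex1, the nuclease that clears cytosolic DNA, was listed at 0 in all 8 libraries. All 1314 bases of its gene model lie within exons of Atrip on the same strand, a gene with 3756 counts over the 8 libraries, so the count table cannot say whether Trex1 RNA was present.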
